A study of Oryza sativa Japonica Group with 20 samples.

Results

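The genes described here are 131 rice genes whose transcript level rose late in drying leaves. On a scale with a floor of 200, their leaf level had risen little or not at all after 0.5 or 2 h and had more than doubled by 12 h. They were chosen from the 26789 array features with AK (full-length cDNA) or Os (locus) identifiers, and make up 0.474% of the 27609 genes on the array. Intensities under 200 were raised to 200, log2 values were averaged over the replicates of a group, and a change was the value at one time minus the value at 0 h of the same tissue. A gene was taken when its leaf change was over 1 after 12 h and under 0.3 at both 0.5 and 2 h, and its root change after 12 h was over -1. The last limit left out genes falling clearly in root, except where the floor hid the fall of a dim gene, as in AK059758. Of the 2237 genes with a leaf change over 1 after 12 h, 173 were under 0.3 after 2 h, 135 of these were also under 0.3 after 0.5 h, and 131 passed the limit in root. Up to 150 genes with the largest leaf change between 2 and 12 h were to be kept, so all 131 stayed.

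Air-dried seedlings of the non-transgenic japonica cultivar Nakdong were sampled as leaf and as root at the onset of drought treatment (0 h) and 0.5, 2, 6 and 12 h into it. Each of the 10 groups had 2 biological replicates, and each replicate was hybridised alone (Cy3) to a 3′-tiling array, 20 arrays in all. Whole seedlings were taken out of soil, kept in water and dried in a warm, lit chamber with the roots wrapped, so all groups after 0 h share heat, continuous light and wrapping besides water loss, and each time is set against 0 h rather than against undried seedlings of the same hour. The unit is the intensity of a gene on the linear scale as deposited, and intensities of different genes are not set against each other.

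When a plant loses water, abscisic acid builds up and kinases and transcription factors switch on a first set of genes, and the proteins of that set can in turn switch on later ones. Genes of such a later wave are known in plants for roles in protein turnover, transport, storage and remobilisation of nutrients and cell protection, while leaves lower their photosynthesis genes. Rolling of the leaf and loss of fresh weight proceed over hours, and roots of an uprooted seedling dry by a course of their own.

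Of the 131 genes, 116 have AK identifiers and 15 have Os identifiers, and AK identifiers make up 88.5% of these genes and 74.1% of all AK and Os features. All 131 were measured by 10 probes each, as were 27431 genes of the array. The files pair neither kind of identifier with a gene name, so the genes are given by identifier and grouped by timing and tissue. Os identifiers carry the chromosome, and the 15 lie on chromosomes 1, 2, 3, 5, 6, 7, 8, 10 and 11.

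The arrays behaved alike with a few exceptions that touch these genes. Array medians lay between 1954 and 2743. A feature of random sequences, which shows the background, read 115 to 228 on 18 arrays. It was raised on a pair of 0.5 h arrays, to 362 in leaf (replicate 1) and to 340 in root (replicate 2). The tissue labels matched their markers, since the summed intensity of rbcS (the small subunit of Rubisco) and 5 chlorophyll-binding protein genes, CB1 to CB5, was 103099 to 296539 on leaf arrays and 4922 to 40490 on root arrays. The dehydration marker rab21 (AK121952), a dehydrin gene, read 50970 and 57281 in leaf after 12 h, against 11038 and 8435 at 0 h. It is not one of the 131 genes, because it had risen by 2 h, to 21739 and 23853.

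The level of the late genes in leaf was flat or lower at first and then climbed between 2 and 6 h. Their median intensity was 1360 and 1557 on the 0 h arrays, 567 and 1177 after 0.5 h, 1816 and 1394 after 2 h, 3750 and 2617 after 6 h, and 4398 and 4066 after 12 h. The median change in leaf was -0.74 after 0.5 h, 0.06 after 2 h, 0.88 after 6 h and 1.27 after 12 h, against -0.12, 0.04, 0 and -0.01 over all AK and Os features. On the linear scale these medians are 1.85-fold after 6 h and 2.41-fold after 12 h. The changes at 0.5, 2 and 12 h are what chose the genes and are given as a description only. The 6 h arrays were not used by the choice, but the 0 h arrays to which they are compared were. In samples of a whole organ, more cells of a type and more RNA per cell cannot be told apart.

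**Figure D1:**
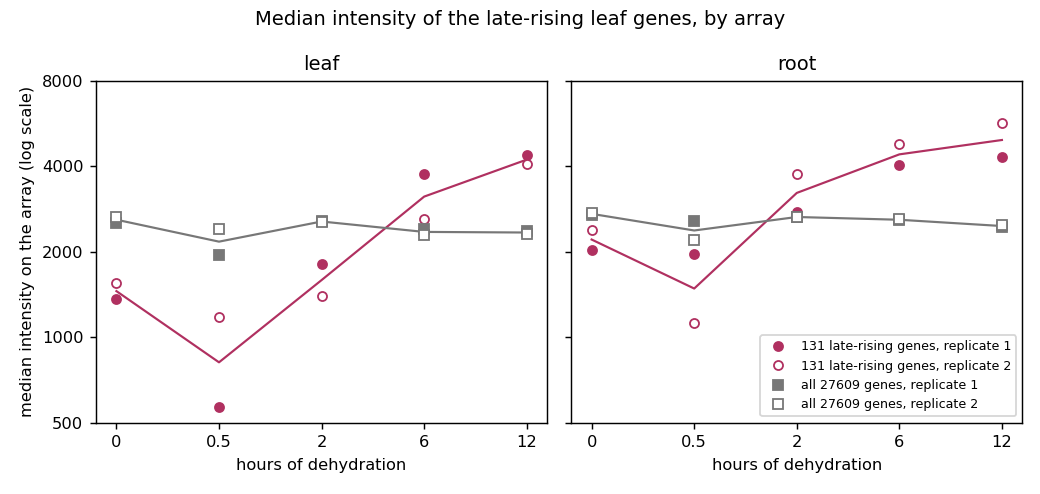
Median intensity on each array (log scale) of the 131 late-rising genes (circles) and of all 27609 genes (squares) against hours of dehydration, in leaf and in root, with filled symbols for replicate 1, open symbols for replicate 2 and lines through their geometric means. The late genes stood at 1360 and 1557 on the leaf 0 h arrays and at 4398 and 4066 after 12 h, and their median in root also rose with time, while the array medians stayed between 1954 and 2743.

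Most of the rise was in place by 6 h. At 6 h, 102 of the 131 genes had gone 50% or more of the way to their 12 h change, and the median share was 71.2%. The median step was 0.89 between 2 and 6 h and 0.39 between 6 and 12 h. A set of 49 genes was already over 1 after 6 h, and 10 stood higher after 6 h than after 12 h, while 12 were still under 0.3 after 6 h on this scale with its floor of 200. Both 6 h arrays lay above both 2 h arrays for 100 genes (14.4% of all genes did so), and both 12 h arrays lay above both 6 h arrays for 70 (15% of all genes). For 83 genes the 4 arrays of 6 and 12 h all lay above the 6 leaf arrays of 0, 0.5 and 2 h (4.18% of all genes), and for 66 both 12 h arrays lay above the other 8 leaf arrays (4.49%). Arrays of the choice enter all of these counts, so nothing is read from them.

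Most of the rises were modest. The leaf change after 12 h was between 1 and 1.5 for 92 genes and over 2 for 16, with quartiles of 1.10 and 1.59 and a highest value of 4.95. Both 12 h arrays lay above both 0 h arrays for 124 genes (23.7% of all genes), and the 7 whose arrays overlapped were AK120374, AK070056, AK111424, AK061798, AK099918, AK112111 and AK066972. In each of these 7 the 2 replicates at 0 h differed by more than 1 on the log2 scale. AK120374, for example, read 14146 and 8238 in leaf after 12 h, against 15018 and 1502 at 0 h. It is the one late gene in which leaf replicate 1 exceeded replicate 2 by more than 0.5 at all 5 times, as 0.666% of all genes did.

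In one limma fit of all 20 arrays, with no floor, 60 of the 131 genes were called higher in leaf after 12 h than at 0 h (5.53% of all genes) and 0 lower (10.2%). A gene is called at a Benjamini-Hochberg adjusted p under 0.05 and a log2 difference beyond 1 or -1. Since the choice used this contrast, nothing is read from the count, and it moved with single arrays. Without replicate 1 or 2 of leaf 0 h it stood at 23 and 35, and without replicate 1 or 2 of leaf 12 h at 22 and 23. At 6 h, 23 genes were called higher than at 0 h (5.72%) and 0 lower (8.72%), and both 6 h arrays lay above both 0 h arrays for 104 (33.2%). The 23 calls became 6 and 11 when replicate 1 or 2 of leaf 0 h was left out, and 7 when either leaf 6 h array was. At 2 h 0 were called in either direction (8.32% of all genes higher and 3.62% lower), which the choice, asking for a floored change under 0.3 by then, largely sets. At an unadjusted p under 0.05, limma gave 103 late genes higher and 0 lower after 12 h (10.3% and 18.7% of all genes), 62 and 0 after 6 h (14.4% and 17.9%), and 4 and 2 after 2 h (17.8% and 10.1%).

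The dip after 0.5 h was uneven between replicates. The leaf change was under 0 for 111 genes after 0.5 h, under -0.5 for 82 and under -1 for 40. Both 0.5 h arrays lay below both 0 h arrays for 60 genes (30.1% of all genes). With replicate 1 alone the median change was -1.11, against -0.33 over all genes, and with replicate 2 alone it was -0.35, against -0.03. Replicate 1 is the array with the raised background feature, and the part of that array in the dip was not tested. The replicates of 0.5 h were also the farthest apart in leaf, with a median gap of 0.88 and 57 genes more than 1 apart. The median gap was 0.45 at 0 h, 0.43 after 2 h, 0.41 after 6 h and 0.29 after 12 h. Over all genes the gap was also widest after 0.5 h, at 0.63. It was 0.34 at 0 h, 0.41 after 2 h, 0.25 after 6 h and 0.29 after 12 h. The share of all genes more than 1 apart was not counted. By limma 0 late genes were called in leaf after 0.5 h (0.145% of all genes higher and 0.261% lower), and 0 were higher and 40 lower at an unadjusted p under 0.05 (4.63% and 16.3% of all genes). The choice asked for a leaf change under 0.3 after 0.5 h, which holds back rises and favours falls. Shares of all features under 0, -0.5 and -1 were not counted, so nothing is read from these counts.

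The 12 genes with the largest leaf change between 2 and 12 h include 3 that lay below the random feature on both leaf 0 h arrays. AK121922 read 55 and 61 in leaf at 0 h, 78 and 111 after 0.5 h, 113 and 301 after 2 h, 3286 and 2253 after 6 h, and 4737 and 8113 after 12 h. Its rise is a bound of at least 34.1-fold after 12 h. For such a bound, the dim values are set to the reading of the random feature on their own arrays before the mean log2 values are compared. In root AK121922 read 152 and 457 at 0 h, 240 and 105 after 0.5 h, 805 and 1818 after 2 h, 5657 and 5150 after 6 h, and 7715 and 9788 after 12 h. It thus came up in both organs, and in root both 2 h arrays were already above both 0 h arrays.

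AK067385 and AK064229 were the others below the random feature on both leaf 0 h arrays. AK067385 read 1302 and 1114 in leaf after 12 h, against 69 and 146 at 0 h, a rise of at least 6.63-fold. AK064229 read 1593 and 813 after 12 h, against 31 and 61 at 0 h, a rise of at least 6.26-fold. In root both were above the random feature from the start, with 399 and 523 for AK067385 and 1160 and 4156 for AK064229 at 0 h. Outside the first 12, AK107815, AK106702 and AK073198 were also below the random feature at 0 h, with bounds of 2.81-, 2.39- and 2.38-fold, so at least that many times higher after 12 h. In such dim genes the floor can hide a step by 2 h. AK067385 read 204 and 215 in leaf after 2 h, with the random feature at 159 and 115. Without the floor the leaf change after 2 h was 1.67 for AK121922, 1.06 for AK067385 and 1.88 for AK064229. It was 1.67 for AK107815 and 1.27 for AK106702, and the fit called none of these.

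AK068186 came first in the order, and its leaf replicates were far apart on the 6 h arrays. In leaf it read 265 and 67 at 0 h, 24 and 147 after 0.5 h, 196 and 289 after 2 h, 8725 and 119 after 6 h, and 10132 and 4764 after 12 h. At 6 h replicate 1 was near its 12 h level while replicate 2 lay within the range of the 0 h arrays. In root it read 32 and 50 at 0 h, 30 and 28 after 2 h, 919 and 246 after 6 h, and 681 and 612 after 12 h. Its rise in root was thus also a late one, with both 2 h arrays below the random feature and both 6 h arrays above it.

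AK064016 and AK060033 climbed in leaf in 2 steps, and AK064016 was higher in root well before. AK064016 read 2839 and 4718 in leaf at 0 h, 1947 and 1546 after 2 h, 10812 and 7735 after 6 h, and 15898 and 12258 after 12 h. In root it had already gone to 13518 and 20112 after 2 h, against 617 and 2088 at 0 h, and stood at 24323 and 25313 after 12 h. AK060033 read 2104 and 2465 in leaf at 0 h, 1767 and 2387 after 2 h, 7710 and 5628 after 6 h, and 13231 and 11591 after 12 h. In both genes the leaf arrays of 2, 6 and 12 h did not overlap.

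Os07g0179700 and AK069278 reached most of their leaf level by 6 h. Os07g0179700 read 480 and 385 at 0 h, 221 and 433 after 2 h, 2514 and 2656 after 6 h, and 3211 and 1158 after 12 h, where the replicates were apart. AK069278 read 1065 and 1187 at 0 h, 1686 and 1023 after 2 h, 8490 and 5044 after 6 h, and 8926 and 6628 after 12 h. AK121127 took the other course, with 568 and 857 after 6 h and 1613 and 1455 after 12 h, against 286 and 590 at 0 h. Its 6 h arrays overlapped those of 0 h, and only the 12 h arrays lay clear of them.

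The 12 genes still under 0.3 in leaf after 6 h were AK070056, AK069247, AK068054, AK107815, AK064118, AK103439, AK106702, AK106421, AK066972, AK119588, AK073198 and Os06g0205600. In all 12 both 12 h arrays lay above both 6 h arrays, and in 9 the 6 h arrays did not lie clear above those of 0 h. AK069247 read 402 and 182 at 0 h, 258 and 286 after 6 h, and 545 and 888 after 12 h. AK103439 read 5391 and 4213 at 0 h, 7151 and 3946 after 6 h, and 10215 and 9026 after 12 h. In AK107815 and AK106702 the floor hides an earlier step, since without it the fit called both higher in leaf after 6 h than at 0 h. AK107815 read 209 and 130 after 6 h, against 35 and 29 at 0 h, and AK106702 read 162 and 219, against 44 and 37. The 6 h values lie close to the random feature, which read 171 and 164 on those arrays. Over the 12 genes the median root change was 0.66 after 6 h and 1.01 after 12 h. AK068054 and AK103439, for example, were over 1 in root after 12 h, at 2.58 and 1.18.

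The 10 genes whose leaf change was larger after 6 h than after 12 h were Os07g0179700, AK067954, AK059758, AK058333, AK102146, AK120731, AK099918, AK100029, AK067530 and AK100813. In 0 of the 10 did both 6 h arrays lie above both 12 h arrays, so the fall between them is within the replicate spread. AK102146 came near to it, with 1575 and 2112 in leaf after 6 h and 1390 and 1630 after 12 h, against 419 and 714 at 0 h. In root AK102146 read 5257 and 5601 after 12 h, against 10844 and 9464 at 0 h, so it stood above leaf throughout while moving the other way.

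**Figure D2:**
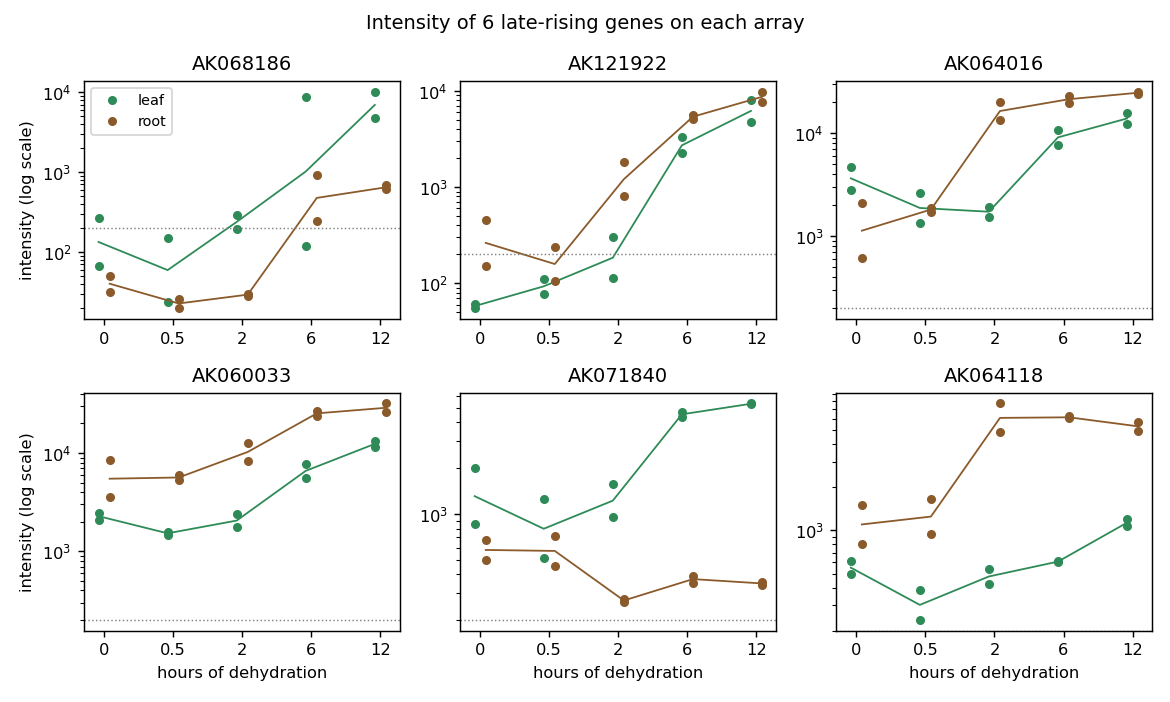
Intensity (log scale, its own range in each panel) of 6 late-rising genes on each of the 20 arrays against hours of dehydration, with leaf points and root points side by side, lines through the geometric means of the 2 replicates and a dotted line at the floor of 200. The 2 leaf values of AK068186 after 6 h lie far apart, at 8725 and 119, while AK071840 is higher in leaf and AK064118 higher in root on all arrays from 2 h on.

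Os08g0236700 and AK058766 followed each other closely. Os08g0236700 read 852 and 1018 in leaf at 0 h, 764 and 720 after 2 h, 3459 and 2485 after 6 h, and 4664 and 4089 after 12 h. AK058766 read 656 and 872 at 0 h, 586 and 736 after 2 h, 2860 and 2153 after 6 h, and 3831 and 2890 after 12 h. Over the 20 arrays their log2 values correlated at r = 0.986. AK106059 and Os05g0401000 were the next most alike pair, with r = 0.984, of 8515 pairs with a median r of 0.60. These are descriptions over arrays that the genes share. AK069003 closed the first 12 with 2566 and 2245 in leaf after 12 h, against 773 and 976 at 0 h.

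Outside the first 12 in the order, the genes with a leaf change over 2 after 12 h were AK105918, AK100323, AK065414, AK121059, AK071840, AK067617 and AK102982. AK121059 read 9500 and 6643 in leaf after 12 h, against 1413 and 1746 at 0 h. AK067617 read 6075 and 6753 after 12 h, against 1953 and 1145 at 0 h. In both the 12 h arrays lay clear of all arrays of 0, 0.5 and 2 h. AK105918 took its larger step late, with 2216 and 1442 at 0 h, 3718 and 3052 after 6 h, and 5805 and 9250 after 12 h. AK065414 was uneven, with 7880 and 752 after 6 h. AK102982 read 2431 and 2253 in leaf after 12 h, against 596 and 424 at 0 h, and in root it was already at 6639 and 7866 after 2 h, against 749 and 698 at 0 h.

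The 5 brightest genes at leaf 12 h had leaf changes of 1.02 to 1.47. AK065866 read 42243 and 50635 after 12 h, against 18384 and 26252 at 0 h. Os11g0451700 read 31887 and 41047 after 12 h, against 17322 and 9873 at 0 h. AK065872 read 23321 and 21426 after 12 h, against 9312 and 9392 at 0 h. AK072857 was similar in leaf, with 23365 and 20514 after 12 h against 9343 and 12506 at 0 h, but in root it read 14286 and 11650 after 12 h, against 17322 and 14378. In AK099918 the groups overlapped, with 31633 and 22534 after 12 h against 31288 and 3808 at 0 h, so its place among the late genes rests on leaf 0 h replicate 2.

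Values on either side of the limits were close together. AK068054 entered with a leaf change of 1.003 after 12 h, and Os02g0771400 stayed out with 0.997. AK121611 entered with 0.299 in leaf after 2 h, and AK064194 stayed out with 0.301. In root after 12 h AK066885 entered with -0.98 and AK120657 stayed out with -1.03, and in leaf after 0.5 h AK112111 entered with 0.29 and Os01g0104200 stayed out with 0.32. The gaps are far smaller than the replicate gaps given above, and the choice moved with single arrays. Of the 131 genes, 70 and 66 were chosen again when replicate 1 or 2 of leaf 0 h was left out, and 84 when replicate 2 of leaf 2 h was.

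In root the choice asked only that the 12 h change be over -1. The median change of the same genes in root was above 0 from 2 h on. It was -0.44 after 0.5 h, 0.30 after 2 h, 0.77 after 6 h and 0.81 after 12 h. Over all AK and Os features it was -0.23, 0, 0 and 0. After 2 h, 66 of the late genes were still under 0.3 in root, while 22 were over 1. At 12 h, 55 genes were over 1, 76 lay between -1 and 1, 22 of these below 0, and 36 had a larger change in root than in leaf. The matching shares of all features were not counted, so these numbers only describe the late genes. Both 12 h arrays lay above both 0 h arrays for 90 genes (26.2% of all genes) and below them for 14 (35.5%). The fit called 32 genes higher in root after 12 h (3.31%) and 1 lower (10.9%), AK059758, which was below the random feature on both root 12 h arrays. At 6 h 19 genes were called higher in root than at 0 h (2.19%) and 0 lower (6.12%), and both 6 h arrays lay above both 0 h arrays for 88 (29.2%). At 2 h 7 were called higher (1.67%) and 0 lower (1.79%). At an unadjusted p under 0.05, limma gave 52 late genes higher and 3 lower in root after 12 h (7.99% and 19.1% of all genes), 47 and 1 after 6 h (6.61% and 14.4%), and 24 and 3 after 2 h (5.68% and 9.46%). The summed intensity of the 6 leaf photosynthesis genes in root was 15351 and 40490 after 12 h, against 5838 and 4922 at 0 h, and their part in these counts was not tested. The paper reports chlorophyll-binding protein genes as induced in dehydrated root, less strongly but still clearly in the dark. Because the 0 h arrays and the limit on root after 12 h entered the choice, nothing is read from these counts, and the 32 stood at 11 without root 0 h replicate 1 and at 11 without root 12 h replicate 2.

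Most of the 55 genes over 1 in root after 12 h were above their 0 h level there by 2 h. The 55 were taken on root 12 h against 0 h, which favours low 0 h readings and so higher changes after 2 h. Matching shares of all features were not counted, so the counts by timing only describe these genes. Of the 55, 19 were over 1 in root already after 2 h, 25 lay between 0.3 and 1 after 2 h, and 9 were under 0.3 at 0.5 and 2 h and so late in root too. The other 2, AK120374 and AK073198, were over 0.3 after 0.5 h and under it after 2 h. The 9 late in root were AK068186, AK121127, Os08g0236700, AK058766, AK070056, AK108593, AK106229, AK072990 and AK100029. Of these, the fit called AK121127, Os08g0236700, AK058766 and AK106229 higher in root after 12 h, and not the others. AK070056 read 135 and 896 in root after 12 h, against 139 and 173 at 0 h. Its place among the 9 thus rests on root 12 h replicate 2. AK121127 read 6016 and 8428 in root after 12 h and 2571 and 4656 after 6 h, against 146 and 348 after 2 h. AK108593 read 4314 and 5174 after 12 h and 2888 and 3982 after 6 h, against 694 and 1699 after 2 h. In both genes all 4 arrays of 6 and 12 h lay above those of 0, 0.5 and 2 h.

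The 55 genes over 1 in root after 12 h and the other 76 had similar medians in leaf, and this was not tested. The 55 had median leaf changes of 0.91 after 6 h and 1.29 after 12 h, and the other 76 had 0.86 and 1.25. In root the medians at 2, 6 and 12 h were 0.76, 1.43 and 1.67 for the 55, and 0.00, 0.31 and 0.41 for the other 76. The split was made on the root 12 h values, so the root medians follow from it. Higher values on both arrays in leaf with lower ones on both in root were seen in 7 late genes between 2 and 6 h (1.33% of all genes) and in 14 between 0 and 12 h (4.63%).

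**Figure D3:**
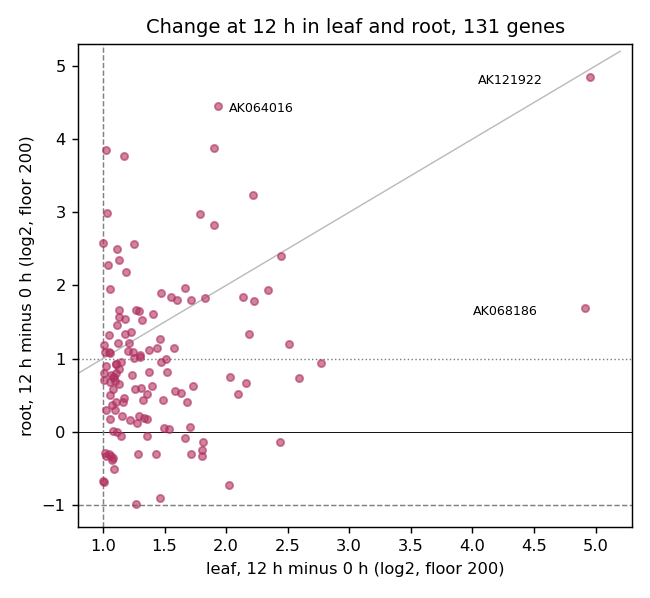
Change after 12 h from 0 h (log2, intensities under 200 raised to 200) of each of the 131 genes in leaf (horizontal axis) and in root (vertical axis), with dashed lines at the limits of the choice, a dotted line at a root change of 1 and a grey line where both changes are equal. There are 55 genes above the dotted line and 36 above the grey line, and AK121922 changed by 4.95 in leaf and 4.84 in root.

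Root after 6 h against root after 2 h rests on 4 arrays that the choice did not use. The choice did limit the root change after 12 h, so the comparison is not wholly independent of it. Shares of all genes carry no such limit. The median difference over the 131 genes was 0.30, against 0.00 over all genes, and 102 of the 131 were above 0, as were 13402 of the 26789 AK and Os features. Both 6 h arrays lay above both 2 h arrays for 62 late genes (19% of all genes) and below them for 11 (23.6%). By limma 0 of the 27609 genes were called in either direction (0%). At an unadjusted p under 0.05, 16 late genes were higher and 0 lower, against 0.732% higher and 2.71% lower among all genes. The lowest adjusted p was that of AK121127, with a difference of 3.94 (SE 0.86, adjusted p = 0.378), so no single gene passed the test.

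The other genes that had risen in leaf by 12 h gave a different picture in root over the same interval. Of the AK and Os features outside the late set, 1939 had a leaf change over 1 after 12 h and passed the same root limit, and their median leaf change was already 1.24 after 2 h. For the late genes both root 6 h arrays lay above both 2 h arrays in 47.3%, against 21.4% of these 1939, and the median difference was 0.30, against -0.02. In root the median changes of the late genes at 2, 6 and 12 h were 0.30, 0.77 and 0.81, against 0.55, 0.52 and 0.64. The difference between the 2 sets was not tested. The same 6 photosynthesis genes summed in root to 10718 and 24392 after 6 h, against 14238 and 22800 after 2 h, so these markers overlapped between 6 and 2 h.

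At 6 h the late genes stood more often higher in root than in leaf, in a comparison of 4 arrays that the choice did not use. The choice did act on leaf and root levels at other times, so the comparison is not independent of it. Leaf minus root had a median of -0.39 over the 131 genes, against 0.05 over all genes, and was above 0 for 46. Both leaf arrays lay above both root arrays for 33 genes (37.1% of all genes) and below them for 68 (36.3%). The fit called 8 genes higher in leaf (8.27%) and 28 lower in leaf (9.69%). The count of 8 became 5 without leaf 6 h replicate 1 and 4 without either root 6 h array, and the count of 28 became 10 without leaf 6 h replicate 2 and 14 without either root 6 h array. Among the 1939 other genes both leaf arrays lay above both root arrays in 48.5%, and in 25.2% of the late genes. The median of leaf minus root was 0.29 in those other genes, and this difference between the sets was not tested. At 0 h the late genes had a median intensity of 1360 and 1557 in leaf, against 2039 and 2398 in root. The medians of all genes were 2534 and 2662 in leaf and 2704 and 2743 in root. The 0 h arrays entered the choice, which favours low leaf readings there, so nothing is read from these values.

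AK071840 had the clearest excess in leaf among the 8. It read 4380 and 4679 in leaf after 6 h, against 392 and 352 in root, a difference of 3.61 (SE 0.45, limma adjusted p = 0.000187). In leaf it read 852 and 2007 at 0 h, 949 and 1574 after 2 h and 5335 and 5294 after 12 h, while in root it read 677 and 494 at 0 h and 356 and 340 after 12 h. Both its leaf arrays were thus higher after 6 and 12 h than at 0 h, while both its root arrays after 12 h lay below those of 0 h.

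AK059758 read 1422 and 790 in leaf after 6 h, against 83 and 79 in root, where both arrays were below the random feature. Leaf was at least 5.76-fold higher (limma adjusted p = 0.000511). Os02g0223700 read 14852 and 15457 in leaf, against 5633 and 4621 in root, a difference of 1.57 (SE 0.32, limma adjusted p = 0.005). AK106229 read 1407 and 1516 in leaf, against 469 and 727 in root, a difference of 1.32 (SE 0.31, limma adjusted p = 0.00996). The call of Os02g0223700 was lost when replicate 2 of root 6 h was left out (adjusted p = 0.0558). That of AK106229 was lost when replicate 2 of leaf 6 h was left out (adjusted p = 0.0805) or replicate 1 of root 6 h (adjusted p = 0.117). AK106702 was also called, at 162 and 219 in leaf against 25 and 21 in root (adjusted p = 0.000893), but lay near the background in both organs, so no fold is given, and with a floor of 200 its call was lost (adjusted p = 0.725).

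Among the 28 genes lower in leaf after 6 h, some were higher in leaf only by 12 h, and others were climbing there while remaining below root. AK064118 read 600 and 612 in leaf after 6 h, against 6261 and 6036 in root, a difference of -3.34 (SE 0.37, limma adjusted p = 7.94e-05). Its leaf level was 495 and 612 at 0 h and 1192 and 1076 after 12 h, whereas in root it had gone to 4833 and 7673 after 2 h, against 805 and 1506 at 0 h. Os06g0205600 was alike, with 669 and 733 in leaf after 6 h against 3358 and 3585 in root, a difference of -2.31 (SE 0.38, limma adjusted p = 0.00141). In root it read 4156 and 5944 after 2 h, against 1033 and 1268 at 0 h. Both genes were thus higher in root by 2 h, hours before leaf.

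AK067883 and AK100323 were bright in root from the start. AK067883 read 1656 and 1229 in leaf after 6 h, against 6511 and 7147 in root, a difference of -2.26 (SE 0.29, limma adjusted p = 0.000262). AK100323 read 3295 and 2127 in leaf after 6 h, against 10930 and 13094 in root, a difference of -2.18 (SE 0.38, limma adjusted p = 0.00194). At 0 h AK100323 read 456 and 881 in leaf, against 14996 and 9935 in root, so the gap between the organs was narrower after 6 h than at 0 h. AK067883 read 897 and 1055 in leaf at 0 h, against 8238 and 9292 in root.

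AK073198 was below the random feature on both leaf 6 h arrays, at 148 and 148, against 884 and 1423 in root. Root was at least 6.71-fold higher (limma adjusted p = 0.00177), and in leaf both arrays lay above the random feature after 12 h, with 570 and 329. One leaf array after 2 h did so too, at 272, against 98 on the other. Of the first 12 in the order, AK060033 and AK064229 were also called lower in leaf after 6 h. AK060033 read 7710 and 5628 in leaf, against 23783 and 26954 in root, a difference of -1.94 (SE 0.36, limma adjusted p = 0.00291). AK064229 read 735 and 811 in leaf, against 3534 and 5189 in root, a difference of -2.47 (SE 0.59, limma adjusted p = 0.0112), and the call was lost when either leaf 6 h array or replicate 2 of root 6 h was left out, at adjusted p of 0.0592 to 0.095.

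**Figure D4:**
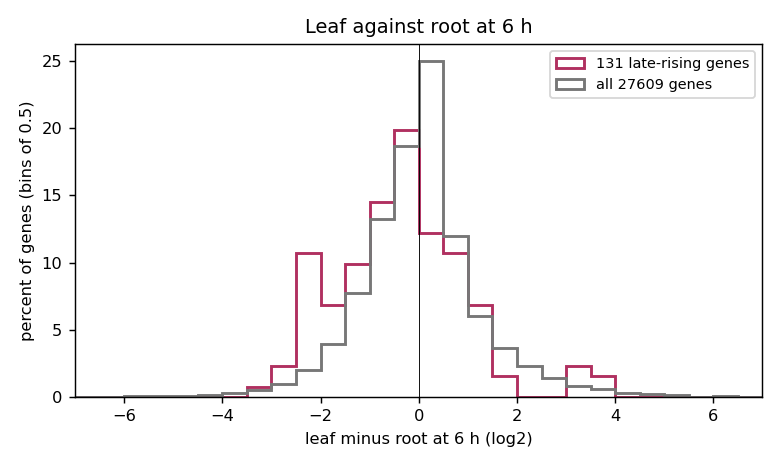
Distribution of leaf minus root after 6 h (log2) in bins of 0.5, as a percent of the 131 late-rising genes and as a percent of all 27609 genes. The late genes have a median of -0.39, against 0.05 for all genes, and extend to both sides. The fit called 28 of them lower in leaf (9.69% of all genes) and 8 higher (8.27%).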

How the data were processed

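The authors hybridised Cy3-labelled RNA to NimbleGen 3′-tiling arrays and reduced the probes of a gene to one value with RMA; the deposited intensity values are on a linear scale, and the RMA version and the arrays normalized together are not given in the sources used here. All 20 value columns were mapped to samples by their labels, and 0 columns were left unmapped. A separate table of root at 0 h gave only the number of probes per gene, and a table of all arrays was not used. The 131 genes were chosen on log2 intensities with a floor of 200. For tests, log2 intensities without a floor were fitted in limma 3.58.1 (R 4.3.3; lmFit and eBayes, 10 groups, 27609 genes, 10 residual degrees of freedom, prior 3.43), and p-values were adjusted by Benjamini-Hochberg over all genes of a comparison. The 6 control features were left out. The fit was checked on simulated data. The number of arrays, 2 per group, limits the precision.

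The members and lists were chosen with earlier results of these data known. Genes named are the first 12 in the order of the choice, the 5 brightest at leaf 12 h, up to 5 in each direction with the lowest adjusted p at 6 h between leaf and root, and, as no limit on the rank applied, those nearest the other limits. AK120374 and the other genes with overlapping arrays, those late in root too, those flat or highest in leaf at 6 h, the others with a leaf change over 2, those near background at 0 h and the most alike pairs were named after their values were seen. The RefSeq gene table (assembly ASM3414082v1) did not annotate the identifiers, so gene lists, root markers and promoter sequences were not used here. Alternatives were other floors, quantile normalization, median centring, a filter on dim genes, a trended robust prior, a replicate block, limma's treat, single-tissue fits and arrays left out.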

Additional observations from a re-analysis of the deposited data

Results flagged for a closer look

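Genes that moved one way in leaf and the other in root were looked for on single arrays. Between 2 and 6 h, 7 of the 131 genes were higher on both leaf 6 h arrays than on both leaf 2 h arrays and lower on both root 6 h arrays than on both root 2 h arrays, namely AK059758, Os07g0295800, AK068706, AK069769, AK068365, AK106890 and AK067372, as were 1.33% of all genes. At 12 h against 0 h the same was so for 14 genes, AK071840, AK066885, AK059758, Os01g0851400, AK068706, AK102146, AK120748, AK106702, AK106059, AK072857, AK103274, AK067883, Os05g0401000 and AK067372, and for 4.63% of all genes. The difference between the tissues was not tested. Leaf 2 h, one of the times of the choice, enters the first count, and leaf and root at 0 and 12 h, with the limit of -1 on the root change, enter the second. In root AK059758 and AK106702 lay near or below the random feature, so their order there says little.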

How the results depend on the processing

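Membership changed with scaling and with single leaf arrays. Quantile normalization over all arrays, and over those of one tissue, chose 150 genes each, of which 85 and 87 were among the 131, and leaving out single arrays kept 66 to 131, with 70 and 66 without a leaf 0 h array and 84 without leaf 2 h replicate 2. Of the genes called, 60 in leaf at 12 h against 0 h became 99 without both 0.5 h arrays of raised background, 32 with only leaf arrays, 7 with treat and 22 to 78 with single arrays left out. In leaf at 6 h against 0 h, 23 became 42 with median centring, 38 without those 0.5 h arrays, 12 with only leaf arrays, 2 with treat and 6 to 31 with single arrays left out. In root at 12 h against 0 h, 32 became 7 with treat and 11 to 38 with single arrays left out. In root at 6 h against 2 h, 0 became 1 with a floor of 200 and 1 without those 0.5 h arrays, and 0 to 1 with single arrays left out. At 6 h, the 8 genes higher in leaf than in root became 5 with a floor of 200, 4 with the dimmest 25% left out, 3 with treat and 4 to 10 with single arrays left out, and the 28 lower in leaf became 3 with treat and 10 to 34. A group left with 1 array is assumed to vary like the other groups. The cause of these moves was not tested. The other 198 of the values behind these counts stayed within 1.5 times, and of the single-gene values 325 kept their call, 7 lost it and 0 turned. Many of these values could not move, so the totals are no measure of stability. Leaving out an array that the choice did not use keeps the same genes. Leaving out one outside a contrast keeps the same difference, and 0 against 0 also counts as within 1.5 times. Replicate numbers are in the labels, but nothing says that a number marks a shared batch, and same-numbered deviations correlated at -0.00134 to 0.72 over 20 pairs of groups within a tissue, 17 of them over 0.1. Most pairs thus deviated together but not all, and the numbers were not taken as pairing. The highest value, 0.72, was between root 2 h and root 6 h. The main fit has no replicate block, so such shared deviations stay in its estimate of the spread. Across tissues, leaf 6 h and root 6 h correlated at 0.373. With a replicate block the calls were 72 in leaf at 12 h, 27 in leaf at 6 h, 39 in root at 12 h, 0 in root at 6 h against 2 h, and 12 higher and 33 lower in leaf than in root at 6 h.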
